A study of Drosophila melanogaster with 9 samples.

Results

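Transcript levels in heads of Drosophila melanogaster were compared between the hours around dawn and the hours around dusk. The dawn window held 4 arrays, from ZT23 and from ZT3 replicates 1, 2 and 3, and the dusk window held 3 arrays, from ZT11 and from ZT15 replicates 1 and 2. These are 7 of the 9 Affymetrix arrays of the series, chosen by the zeitgeber time in their titles. Zeitgeber time (ZT) is the number of hours since the lights came on. The other arrays, from ZT7 and ZT19, lie outside both windows and did not enter the comparison. All 7 arrays carried biotin-labelled total RNA, prepared with Trizol, from the strain named 5073. Its genotype, and the sex, age, number and light schedule of the flies, are not stated in the labels, and no other strain was analysed here. The labels also do not say whether replicates came from separate collections of flies, so p-values measure the spread between these arrays, which may be technical. Each window pools 2 times, ZT23 with ZT3 and ZT11 with ZT15, so that spread also holds differences between the pooled times. The number of arrays limits the precision of every value.

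In the fly clock, the transcription factors CLOCK and CYCLE switch on period, timeless, vrille, Pdp1 and clockwork orange, and the PERIOD and TIMELESS proteins later block that activity. In an interlocked loop, VRILLE represses Clk and PDP1 activates it. Fly heads carry this oscillator in brain clock neurons, and also in photoreceptors, glia and fat body, which make up much more of the tissue. Many outputs of these peripheral clocks concern vision, detoxification and metabolism.

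Levels are on the log2 scale of the authors' GCRMA values, so a difference of 1 is a 2-fold difference. Every difference is dawn minus dusk, and a positive one means a higher level at dawn. A total of 12040 probe sets that reached 5 on at least 2 of the 7 arrays were tested with limma, which fits one linear model per probe set. ZT3 replicate 1 and ZT15 replicate 2, called the 2-array set below, were set apart as a block, because transcripts of male reproductive tissue were low on both.

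The arrays differed in ways that cut across the windows. Array medians were 6.06 to 6.57 at dawn and 6.05 to 6.61 at dusk, and the lowest in each window belonged to the 2-array set. The median level of 32 measured testis and accessory gland genes was 10.67 at ZT23. It was 3.68, 9.65 and 9.51 in ZT3 replicates 1, 2 and 3. At dusk it was 11.48 at ZT11, and 11.31 and 3.25 in ZT15 replicates 1 and 2. Fewer cells of a type and less RNA per cell cannot be told apart in whole heads, here and for the lists below. The block separates the arrays without these transcripts from the rest. The median level of 23 measured gut genes, mainly digestive proteases, was 9.81 at ZT23 and 5.16, 5.24 and 4.89 in the ZT3 replicates. At dusk it was 9.90 at ZT11, and 10.09 and 4.07 in ZT15 replicates 1 and 2. Outside the 2-array set, low gut transcripts were therefore found on both ZT3 arrays and on neither dusk array, and the block does not account for that. Values with 3 array sets as a block are given for many of the genes and lists described below. In that block those ZT3 arrays form a set of their own, and ZT23, ZT11 and ZT15 replicate 1 another. The set of those ZT3 arrays holds no dusk array, so they drop out of dawn minus dusk. ZT23 is then the only dawn array outside the 2-array set, and array set and time cannot be told apart. Where no such value is given, it may still differ in size or sign. The median of 23 phototransduction genes lay between 11.80 and 12.44 at dawn and between 11.75 and 11.91 at dusk, so photoreceptor transcripts were abundant on every array. Opsin genes were not analysed here. Only 3 of 16 measured ovary genes passed the filter, with levels of at most 5.41.

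**Figure D1:**
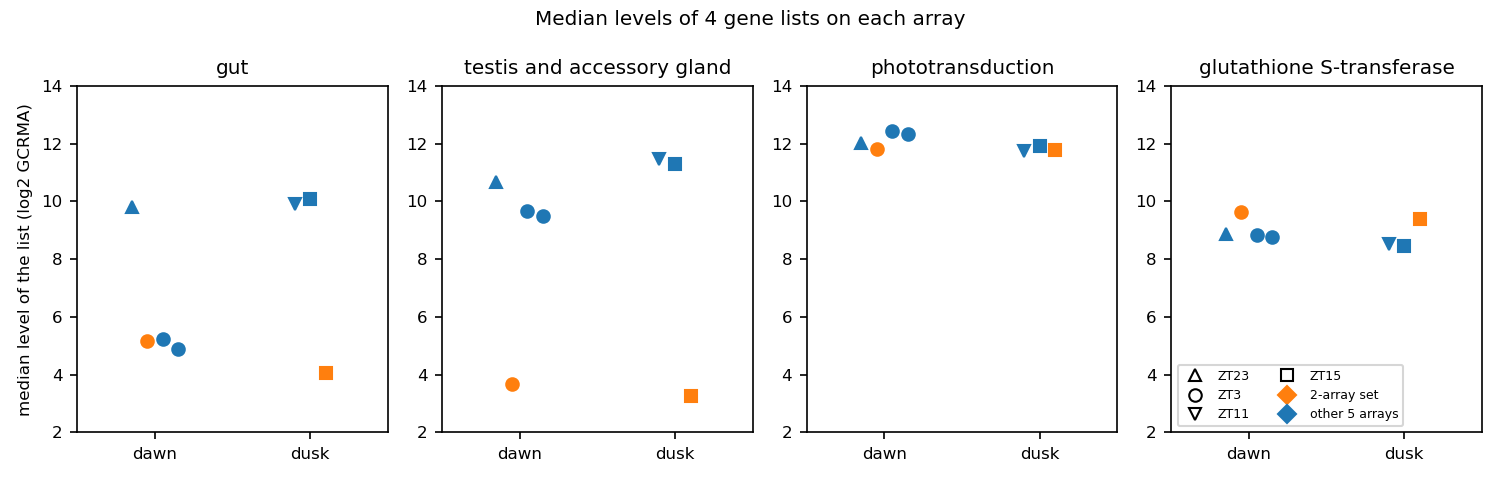
Median log2 level of the gut, testis and accessory gland, phototransduction and glutathione S-transferase lists on each array, with dawn arrays left of dusk arrays. Marker shape gives the time and orange marks the 2-array set. The testis and accessory gland list is at 3.68 and 3.25 on the 2-array set, and the gut list is at 4.07 to 5.24 on the 3 ZT3 arrays and ZT15 replicate 2, against 9.81 to 10.09 on ZT23, ZT11 and ZT15 replicate 1.

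Of the 12040 probe sets, 3 passed limma's test at an adjusted p of 0.05 (0.0249%), and all 3 belonged to core clock genes. Clk rose at dawn (1 probe set, 0.00831% of those tested), and vri and per fell (2 probe sets, 0.0166%). With no adjustment, 913 probe sets had a p under 0.05 with the higher level at dawn (7.58%) and 743 with the lower level at dawn (6.17%), 1656 in all, where 602 would be reached by chance. The median difference of all probe sets was 0.07. Differences beyond 2-fold numbered 34 with the higher level at dawn and 516 with the lower level at dawn. With 3 array sets as a block these numbers were 54 and 43. As ZT3 replicates 2 and 3 then drop out of the difference, array set and time cannot be told apart in this change.

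Clk encodes the activator CLOCK. Its level was 9.46 at ZT23 and 9.63, 9.74 and 9.82 in the ZT3 replicates, against 7.71 at ZT11 and 7.33 and 7.11 in the ZT15 replicates. Every dawn array lay above every dusk array, with 9.46 the lowest dawn value and 7.71 the highest dusk value. The mean was 9.66 ± 0.156 at dawn and 7.39 ± 0.302 at dusk (SD, n = 4 and 3), and the fitted difference was 2.26 (SE 0.153, limma adjusted p = 0.0379), a 4.78-fold higher level at dawn. cyc, which encodes the partner of CLOCK and is known to be steady through the day, averaged 9.69 ± 0.139 at dawn and 9.60 ± 0.253 at dusk (SD, n = 4 and 3). Its difference was 0.11 (SE 0.104, adjusted p = 0.603), and 0.06 with 3 array sets as a block, and the windows overlapped.

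The transcripts that CLOCK and CYCLE activate ran the other way. vri, which encodes the repressor of Clk, was at 10.15 at ZT23 and at 10.13, 9.87 and 9.80 in the ZT3 replicates, against 11.91 at ZT11 and 11.79 and 12.27 in the ZT15 replicates. Every dawn array lay below every dusk array. vri fell by 1.98 at dawn (SE 0.119, limma adjusted p = 0.0363), so that dusk heads held 3.94 times the dawn level. per, which encodes the repressor PERIOD, was at 7.88, 7.77, 7.63 and 7.78 on the dawn arrays in the same order, against 9.29, 9.70 and 9.70 on the dusk arrays. The 4 dawn values of per lay within a range smaller than the gap between the windows. per fell by 1.79 (SE 0.132, limma adjusted p = 0.0401), and dusk heads held 3.47 times the dawn level.

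These 3 calls held in direction and size, but not in significance, when single arrays were left out. Over the 7 omissions the difference ran from -2.06 to -1.91 for vri, from 2.15 to 2.41 for Clk and from -1.94 to -1.69 for per. Without ZT23 all 3 passed, with the lowest adjusted p of these fits at 0.00949 for vri, 0.0163 for Clk and 0.0208 for per. Without any other single array (ZT3 replicate 1, 2 or 3, ZT11, ZT15 replicate 1 or 2) none of the 3 passed, and their adjusted p reached 0.37. With 3 array sets as a block the differences were -1.89 (SE 0.126) for vri, 2.18 (SE 0.179) for Clk and -1.76 (SE 0.157) for per, and the smallest adjusted p over all probe sets was 0.0623.

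**Figure D2:**
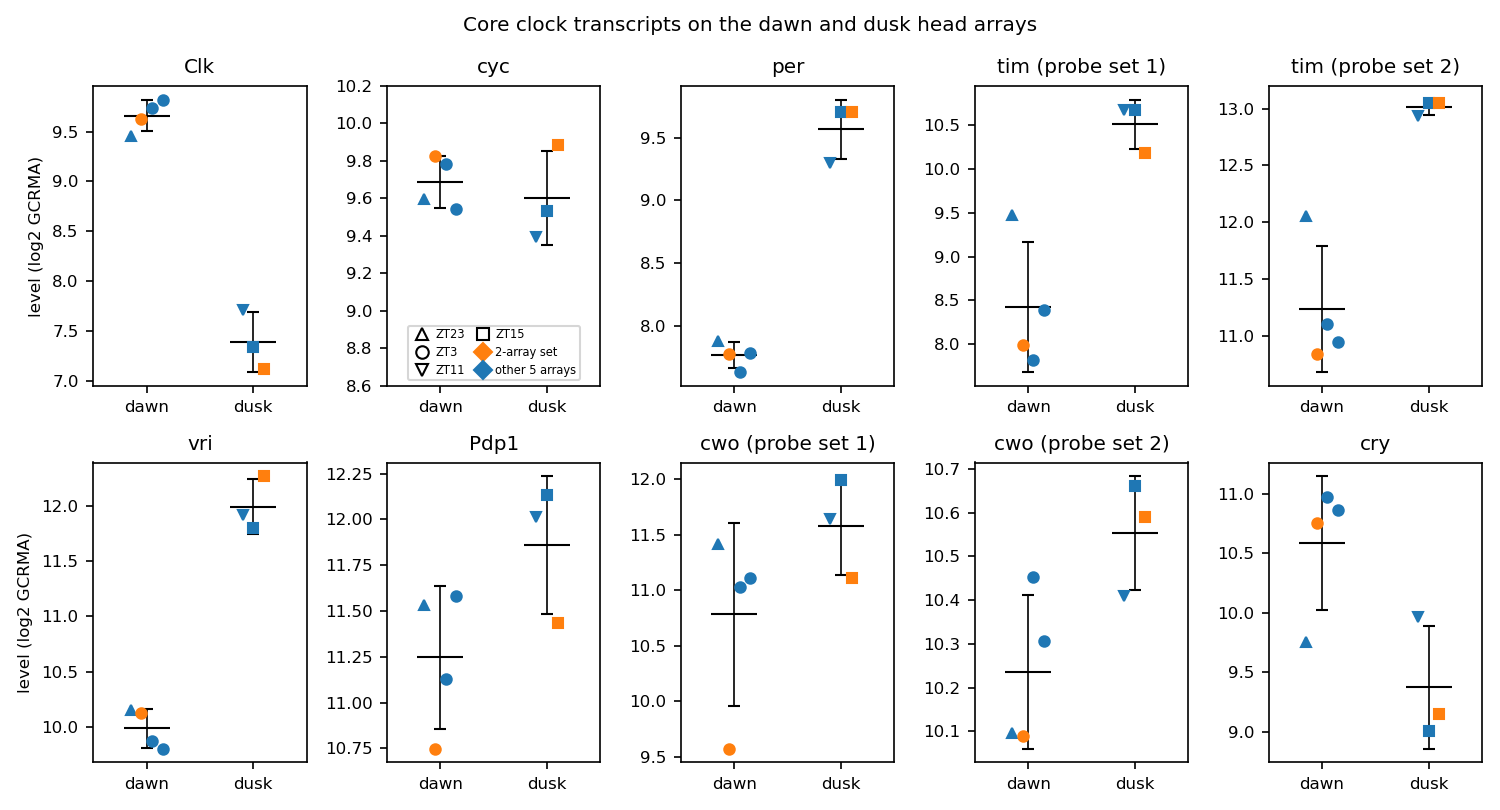
Log2 level of the core clock probe sets on each array, with dawn arrays left of dusk arrays in each panel, and bars for the window mean and SD (n = 4 and 3). Marker shape gives the time, orange marks the 2-array set, and each panel has its own vertical axis. Clk is high and vri, per and both tim probe sets are low on all dawn arrays, while cyc overlaps.

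The other genes activated by CLOCK and CYCLE did not pass the adjusted test. tim, which encodes the partner of PERIOD, has 2 probe sets. The brighter was at 12.05 at ZT23 and at 10.85, 11.11 and 10.95 in the ZT3 replicates, against 12.93 at ZT11 and 13.05 and 13.05 in the ZT15 replicates. Its dawn arrays all lay below its dusk arrays, but ZT23 stood 1.03 above the mean of ZT3 replicates 2 and 3. The difference between the windows was -1.79 (SE 0.296, adjusted p = 0.2). The dimmer probe set was at 9.48, 7.995, 7.82 and 8.39 on the dawn arrays, against 10.67, 10.68 and 10.18 on the dusk arrays, with a difference of -2.13 (SE 0.379, adjusted p = 0.216). In this fit the differences of both tim probe sets were as large as that of per or larger, with a larger spread inside the dawn window. With 3 array sets as a block they were smaller than that of per, at -1.48 (SE 0.282) and -1.62 (SE 0.27) against -1.76.

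Pdp1, which encodes the activator of Clk, was at 11.53, 10.75, 11.13 and 11.58 on the dawn arrays, against 12.01, 12.14 and 11.43 on the dusk arrays. The windows overlapped over all 7 arrays but not inside either array set, and the difference was -0.67 (SE 0.133, adjusted p = 0.242). clockwork orange (cwo), a repressor that acts at the same sites as CLOCK and CYCLE, was at 11.42, 9.57, 11.03 and 11.11 on the dawn arrays, against 11.65, 11.99 and 11.11 on the dusk arrays. Its difference was -0.90 (SE 0.218, adjusted p = 0.298) at this probe set and -0.32 (SE 0.128, adjusted p = 0.357) at its other one. Of the 8 core clock genes, 5 had all dawn arrays below the dusk arrays inside each array set and 1 had them above, against 9.14% and 15.9% of all probe sets tested.

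cry encodes the blue-light receptor cryptochrome, which leads to the loss of TIMELESS in light. Its level was 9.75 at ZT23 and 10.76, 10.97 and 10.86 in the ZT3 replicates, against 9.96 at ZT11 and 9.01 and 9.15 in the ZT15 replicates. The 3 ZT3 arrays lay above all dusk arrays, while ZT23 lay below ZT11. The difference was 1.21 (SE 0.387, adjusted p = 0.34).

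Beyond the clock loop, the 10 genes of smallest p in each direction were described whether or not they passed. The 20 genes, which include Clk, vri and per, had adjusted p-values from 0.0363 to 0.195. All 20 kept their direction in each of the 7 omissions and with 3 array sets as a block, where their differences were 0.78 to 1.097 times as large. Over all 7 arrays, 7 of the 10 with the higher level at dawn and 8 of the 10 with the lower level had no overlap between the windows, against 2.26% and 0.955% of all probe sets tested. The genes were chosen from this contrast, so nothing is read from those counts.

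CG13305 came closest to passing among the genes with the higher level at dawn. It was at 8.93 at ZT23 and at 8.98, 9.07 and 9.02 in the ZT3 replicates, against 6.51 at ZT11 and 6.60 and 7.39 in the ZT15 replicates. The 4 dawn arrays were nearly equal (SD 0.0571), and the difference was 2.20 (SE 0.179, adjusted p = 0.0519). CG42329 was at 8.55, 9.98, 9.57 and 9.42 on the dawn arrays, against 6.98, 6.54 and 7.999 on the dusk arrays. Its difference of 2.29 (SE 0.283, adjusted p = 0.147) was as large as that of Clk, with ZT23 below the ZT3 arrays. With 3 array sets as a block CG42329 differed by 1.87, against 2.18 for Clk.

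CG1441 was at 11.11, 11.37, 11.34 and 11.23 on the dawn arrays, against 10.19, 10.09 and 10.49 on the dusk arrays, a difference of 1.03 (SE 0.098, adjusted p = 0.0854). GstZ2, of the zeta class of glutathione S-transferases, was at 8.26, 9.29, 8.54 and 8.51 on the dawn arrays, against 7.32, 6.85 and 8.01 on the dusk arrays, a difference of 1.33 (SE 0.144, adjusted p = 0.122). Ugt36F1, a UDP-glycosyltransferase, differed by 1.03 (SE 0.11), with ZT15 replicate 2 at 7.86 above 3 of the dawn arrays (7.76, 7.79 and 7.84). hh, which encodes the secreted signal Hedgehog, was dim, at 5.19 to 6.38 at dawn and 4.53 to 5.52 at dusk, and differed by 0.73 (SE 0.0912). The remaining genes of this direction were CG4842 (1.07), CG7724 (0.75) and CG7763 (1.84), with adjusted p-values of 0.147 to 0.148.

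Among genes with the lower level at dawn, Slob encodes a protein that binds the calcium-activated potassium channel Slowpoke. Its level was 11.06 at ZT23 and 10.70, 11.22 and 11.09 in the ZT3 replicates, against 11.93 at ZT11 and 11.72 and 11.62 in the ZT15 replicates. The windows did not overlap, and the difference was -0.76 (SE 0.1, adjusted p = 0.148). Hand, a transcription factor gene known for its role in the heart, was at 5.13 to 5.58 at dawn and 6.00 to 6.11 at dusk, a difference of -0.69 (SE 0.103, adjusted p = 0.195). CG9815 (-0.82), CG14275 (-0.66), CG18518 (-1.28) and CG2681 (-0.82) also had no overlap between the windows.

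msopa and CG5402 belonged to the same 10 but followed the array sets as well. msopa, a male-specific transcript, was at 8.54, 2.74, 8.19 and 8.23 on the dawn arrays, against 10.12, 10.05 and 3.75 on the dusk arrays. Both arrays of the 2-array set lay far below the other 5 arrays, and within each set the dawn level was the lower one. CG5402 was at 8.53, 2.52, 7.68 and 7.63 on the dawn arrays, against 9.79, 9.76 and 3.99 on the dusk arrays. The part of male tissue in these differences was not tested, and the differences with 3 array sets as a block were -1.32 (SE 0.138) for msopa and -1.34 (SE 0.0913) for CG5402.

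**Figure D3:**
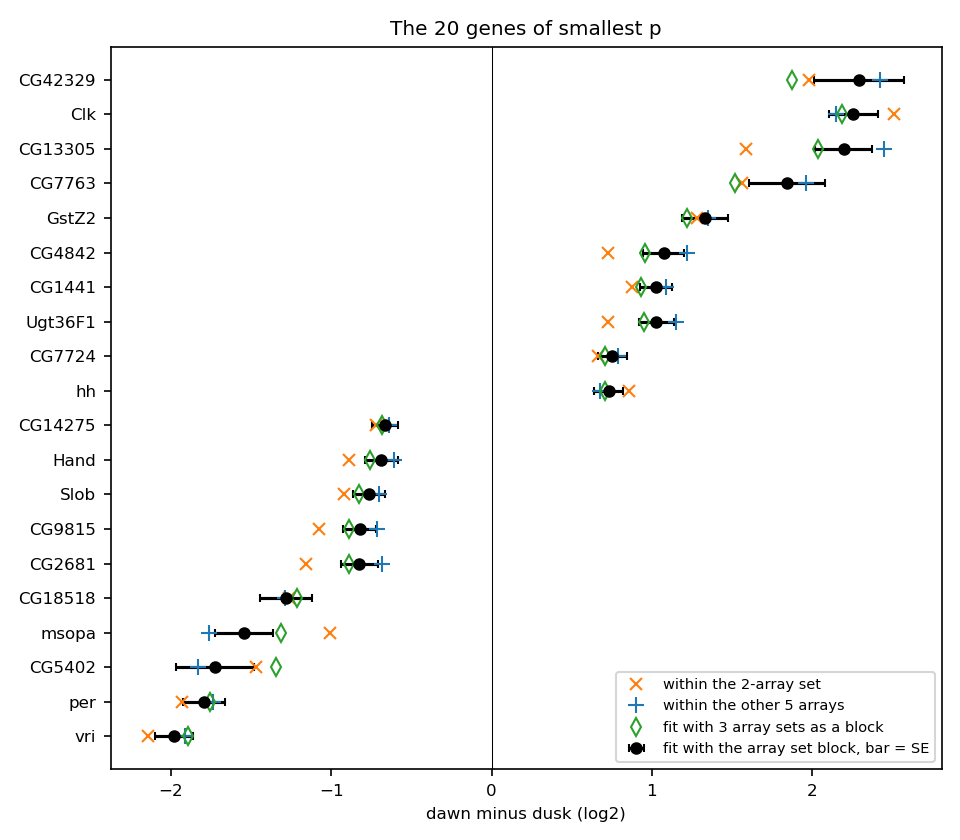
Dawn minus dusk (log2) of the 10 genes of smallest p in each direction, from the fit with the array set block (black, bar for the SE), with 3 array sets as a block (green), and inside the 2-array set (orange) and the other 5 arrays (blue). All 4 estimates lie on the same side of 0 for each gene, and Clk, CG13305 and CG42329 reach beyond 2 while vri, per and CG5402 lie lowest.

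The arrays of ZT7 and ZT19 were not used in the comparison and show where these genes stood at the hours between the windows. On the ZT7 array all 20 genes lay between the dawn and dusk means of the arrays outside the 2-array set, and 11 were nearer to the dawn mean. On the ZT19 array 17 lay between, 3 of the 20 were nearer to the dawn mean, 1 lay beyond the dawn mean and 2 lay beyond the dusk mean. Of all probe sets tested, 50.18% and 28.07% lay between the means on these arrays. Because the 20 genes were chosen for a large and steady difference between those means, these shares are given as a description. Clk was at 8.75 at ZT7 and 8.14 at ZT19, vri at 11.32 and 11.65, and per at 8.80 and 9.05.

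The dawn window joins a time before lights-on and a time after it, and some genes differed inside it. The ZT23 array has no replicate, so its distance from the mean of ZT3 replicates 2 and 3 has no test. Of all probe sets, 1280 (10.63%) lay more than 2-fold apart there. The gut list, at 9.81 at ZT23 and 5.24 and 4.89 in those replicates, moved with them, and its part in the genes below was not tested. vri (0.31), per (0.17) and Clk (-0.32) were close to their ZT3 levels at ZT23. tim (1.03 and 1.37 at its 2 probe sets) was still high at ZT23, and cry (-1.16) was low. sr, an immediate early transcription factor gene that neural activity induces, was at 6.22 at ZT23 and at 8.37, 8.02 and 8.31 in the ZT3 replicates, against 7.33 at ZT11 and 6.16 and 7.13 in the ZT15 replicates. Hr38, another gene of that kind, was at 6.20 at ZT23 and at 8.77, 9.18 and 9.03 in the ZT3 replicates, against 8.19 at ZT11 and 6.27 and 6.80 in the ZT15 replicates. For both genes the 3 ZT3 arrays were the highest of the 7, ZT11 came next, and ZT23 lay among or below the ZT15 arrays. With ZT23 pooled with ZT3, the differences were 0.91 (SE 0.575) for sr and 1.22 (SE 0.88) for Hr38. With 3 array sets as a block, where ZT23 is the only dawn array outside the 2-array set, they were 0.23 and 0.25. Over single omissions they ran from 0.61 to 1.36 and from 0.75 to 1.91. Jra, which encodes the fly Jun protein, differed by 0.27 (SE 0.106), and kay, which encodes Fos, by 0.02 (SE 0.11), or -0.07 with 3 array sets.

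Dawn minus dusk was also taken inside each array set. In the 2-array set it is a single difference, ZT3 replicate 1 minus ZT15 replicate 2. In the other 5 arrays it is ZT23 and ZT3 replicates 2 and 3 against ZT11 and ZT15 replicate 1. The median difference of all probe sets was -0.01 in the 2-array set and 0.11 in the other arrays, and 52.25% of probe sets had the same sign in both. Clk differed by 2.51 in the 2-array set and 2.15 in the others, vri by -2.14 and -1.91, per by -1.93 and -1.74, and the brighter tim probe set by -2.21 and -1.62. These 4 probe sets had the same direction in both sets. The dimmer tim probe set differed by -2.19 and -2.11, and Pdp1 by -0.69 and -0.66. For cwo the values were -1.54 and -0.64 at its brighter probe set, for cry 1.61 and 1.05. cyc differed by -0.05 and 0.18, with a change of sign. No probe set passed limma's test for a difference between the sets (0.0% of 12040, smallest adjusted p = 0.413), while 616 had an unadjusted p under 0.05 (5.12%).

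The 3 genes of smallest p in that test included a digestive protease. Jon65Aiv was at 13.46, 9.04, 12.57 and 12.37 on the dawn arrays, against 14.09, 14.06 and 3.25 on the dusk arrays. It lay 5.78 higher at dawn in the 2-array set and 1.27 lower at dawn in the other arrays (difference between the sets 7.06, SE 0.64, adjusted p = 0.439). CG10912 (2.34 and -0.25) and CG3987 (2.11 and -0.0012) showed the same arrangement, with ZT15 replicate 2 the lowest of all 7 arrays.

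**Figure D4:**
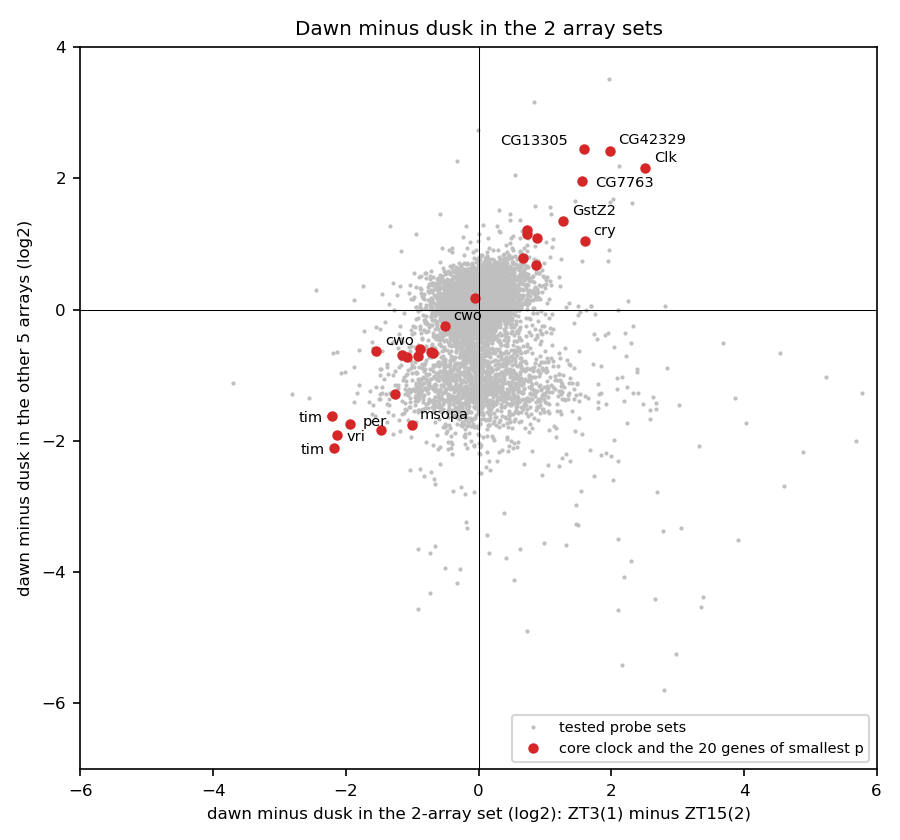
Dawn minus dusk (log2) inside the 2-array set on the horizontal axis and in the other 5 arrays on the vertical axis, for all tested probe sets in grey and for the core clock genes and the 20 genes of smallest p in red. Clk lies at 2.51 and 2.15 and vri at -2.14 and -1.91, while CG13305 (1.59 and 2.45), msopa (-1.01 and -1.77) and cwo (-1.54 and -0.64) lie off the diagonal. The 20 genes were chosen on these same arrays. 2 probe sets lie outside the axes.

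Gene groups were followed by counting members whose dawn and dusk arrays did not overlap inside either array set, a count that 15.9% of all probe sets reached with the higher level at dawn and 9.14% with the lower level. No member of any list outside the core clock passed the adjusted test, so the values below describe these arrays. Genes beyond those given by the naming rule were chosen after their values were seen.

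Of 9 genes of enzymes that modify the clock proteins, 2 had the lower level at dawn without overlap in either set and 1 the higher level, and 2 and 0 had an unadjusted p under 0.05. Usp8, a deubiquitinase that acts on CLOCK in flies, was at 8.70, 9.44, 9.19 and 9.32 on the dawn arrays, against 10.50, 10.10 and 10.42 on the dusk arrays. All dawn arrays were below all dusk arrays, and the difference was -1.16 (SE 0.188, adjusted p = 0.2). Cul3, a ubiquitin ligase subunit, differed by -0.28 (SE 0.0762). The kinase gene dco (-0.09, SE 0.12) and the ligase gene slmb (0.18, SE 0.15), whose products act on PERIOD, overlapped between the windows, and differed by -0.14 and -0.01 with 3 array sets as a block.

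Of 11 genes known to cycle in fly heads, 3 had the higher level at dawn and 4 the lower level without overlap in either set. Their median difference was 0.12, and -0.0028 with 3 array sets. Slob and Usp8 were among those lower at dawn. Ugt35B1 was at 11.20, 12.95, 12.01 and 11.97 on the dawn arrays, against 10.33, 9.82 and 11.49 on the dusk arrays, a difference of 1.59 (SE 0.245, adjusted p = 0.195). The highest level of all was on ZT3 replicate 1, and ZT15 replicate 2 was the highest of the dusk arrays. Cyp6a21, a cytochrome P450 gene, differed by 1.04 (SE 0.164). Cipc, named after a mammalian inhibitor of CLOCK, was at 10.29, 10.89, 10.70 and 10.75 on the dawn arrays, against 11.10, 11.62 and 11.90 on the dusk arrays, a difference of -0.85 (SE 0.18).

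Glutathione S-transferases, which join glutathione to toxic compounds, more often had the higher level at dawn than the lower. Of 31 tested genes, 13 had the higher level at dawn without overlap in either set and 2 the lower level, and 12 and 1 had an unadjusted p under 0.05. The median difference was 0.14, and 0.24 with 3 array sets as a block, against 0.07 and 0.0035 for all probe sets. GstE7 was at 8.89, 9.28, 8.82 and 8.72 on the dawn arrays, against 8.23, 8.31 and 8.58 on the dusk arrays (0.59, SE 0.0868, adjusted p = 0.195). GstD3 differed by 0.74 (SE 0.11), GstE3 by 0.51 (SE 0.079) and GstE5 by 0.49 (SE 0.089). GstD1, the gene of the abundant DDT-metabolising enzyme, was at 13.84 to 14.14 at dawn and 13.63 to 13.79 at dusk, a difference of 0.24 (SE 0.091). GstS1 and GstE10 had the lower level at dawn. GstS1 differed by -0.48, with ZT11 the highest array, and GstE10 by -0.72, or -0.38 with 3 array sets. The GstD and GstE genes are close paralogs, and hybridization of one transcript to the probes of another was not tested. GstE4 was at 11.22 on ZT3 replicate 1 and 11.46 on ZT15 replicate 2 and at 4.11 to 4.46 on the other 5 arrays, so it separated the array sets and not the windows.

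UDP-glycosyltransferases attach sugars to lipophilic compounds. Of 19 tested genes, 7 had the higher level at dawn without overlap in either set and 2 the lower level, and 7 and 3 had an unadjusted p under 0.05. Besides Ugt36F1 and Ugt35B1, the differences were 0.63 (SE 0.11) for Ugt49C1, 0.57 (SE 0.098) for Ugt35A1, 0.57 (SE 0.11) for Ugt302C1 and 0.38 (SE 0.11) for Ugt36D1. The median difference of the list was 0.04, and 0.02 with 3 array sets, against 0.07 and 0.0035 for all probe sets. Of 73 cytochrome P450 genes, 15 had the higher level at dawn without overlap and 1 the lower level, 20.55% and 1.37%, and 11 and 1 had an unadjusted p under 0.05. Cyp4aa1 was at 7.24, 7.61, 7.41 and 7.47 on the dawn arrays, against 6.75, 6.87 and 6.90 on the dusk arrays, a difference of 0.61 (SE 0.0951, adjusted p = 0.195). Among 8 antioxidant genes, 3 had the higher level at dawn without overlap and 1 the lower level. Their median difference was 0.07, and -0.0056 with 3 array sets. Keap1, whose product holds back the oxidative stress factor CncC, differed by 0.51 (SE 0.121), or 0.35 with 3 array sets. Prx3, a mitochondrial peroxiredoxin, differed by 0.19 (SE 0.0913), or 0.14 with 3 array sets.

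**Figure D5:**
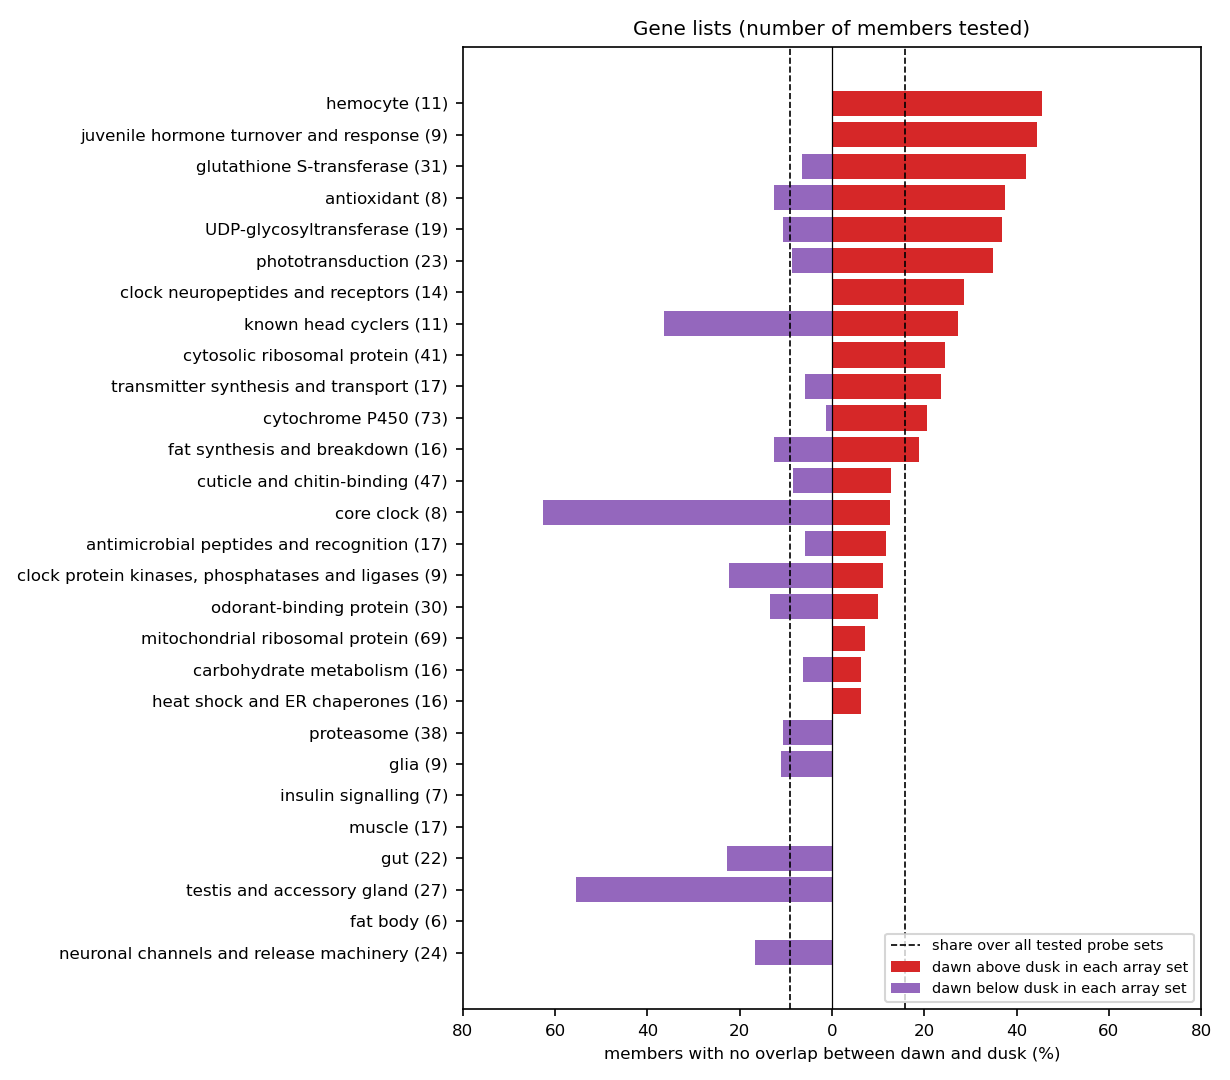
Share of each list's tested members (in percent, number tested in brackets) whose dawn and dusk arrays did not overlap inside either array set, with dawn above dusk to the right and dawn below dusk to the left. Dashed lines give the shares over all tested probe sets, 15.9% and 9.14%. The hemocyte, juvenile hormone and glutathione S-transferase lists reach farthest right, and the core clock and testis lists farthest left. Lists of under 5 tested members are not drawn.

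Juvenile hormone is a lipid hormone that governs reproduction and is broken down by esterases and epoxide hydrolases. Of 9 genes of its turnover and response, 4 had the higher level at dawn without overlap in either set and 0 the lower level. Jhe, which encodes juvenile hormone esterase, was at 5.08 at ZT23 and 6.86, 6.24 and 6.46 in the ZT3 replicates, against 4.52 at ZT11 and 4.09 and 4.55 in the ZT15 replicates. All dawn arrays lay above all dusk arrays, with ZT23 nearest to dusk, and the difference was 1.83 (SE 0.372, adjusted p = 0.251). Jheh2, an epoxide hydrolase gene, differed by 0.41 (SE 0.091), JhI-26 by 0.47 (SE 0.104) and Kr-h1, the transcription factor that responds to the hormone, by 0.25 (SE 0.12), or 0.10 with 3 array sets. The median difference of the list was 0.38, and 0.22 with 3 array sets. The synthetic enzyme gene jhamt followed the array sets, at 10.01 and 9.81 on the 2-array set and 4.62 to 5.81 on the other arrays.

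Of 47 genes of cuticle and chitin-binding proteins that passed the filter, 6 had the higher level at dawn without overlap in either set and 4 the lower level. Those shares, 12.77% and 8.51%, compare with 15.9% and 9.14% of all probe sets. Cpr72Ec was at 12.70 at ZT23 and 13.88, 13.59 and 13.51 in the ZT3 replicates, against 12.02 at ZT11 and 11.14 and 11.87 in the ZT15 replicates. The windows did not overlap, and the difference of 1.78 (SE 0.307, adjusted p = 0.21) was a 3.44-fold one. TwdlT, of the Tweedle family of cuticle proteins, differed by 1.02 (SE 0.152, adjusted p = 0.195). Among 30 odorant-binding protein genes, with 3 higher at dawn and 4 lower without overlap, Obp8a differed by 0.66 (SE 0.102) and Obp56h by 0.56 (SE 0.121).

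Phototransduction genes had a median difference of 0.21, which was 0.01 with 3 array sets as a block. Of 23 tested genes, 8 had the higher level at dawn without overlap in either set and 2 the lower level, and 6 and 1 had an unadjusted p under 0.05. inaD, which encodes the scaffold that holds the phototransduction complex together, was at 12.77, 12.65, 13.02 and 13.07 on the dawn arrays, against 12.30, 12.22 and 12.24 on the dusk arrays. The 3 dusk arrays were nearly equal (SD 0.043), and the difference was 0.61 (SE 0.114, adjusted p = 0.235). laza, the lipid phosphatase that works against the kinase RDGA, differed by 0.72 (SE 0.114, adjusted p = 0.195), and rdgA itself by -0.34 (SE 0.11). inaC, the eye protein kinase C, differed by 0.47 (SE 0.16), or 0.29 with 3 array sets. The channel genes trp (-0.04, SE 0.1) and trpl (0.03, SE 0.18) and the arrestin gene Arr2 (0.08, SE 0.099) overlapped between the windows, and differed by -0.12, -0.18 and -0.02 with 3 array sets.

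Histamine is the transmitter of fly photoreceptors. The gene tan (t), whose enzyme frees histamine from its stored form, was at 13.06, 13.33, 13.23 and 13.15 on the dawn arrays, against 11.83, 12.29 and 12.71 on the dusk arrays. Its windows did not overlap, and the difference was 0.95 (SE 0.156, adjusted p = 0.2). Hdc, the histamine-making enzyme, differed by 0.49 (SE 0.132), and e (ebony), which makes the stored form, by 0.34 (SE 0.3), or -0.08 with 3 array sets. ple, the first enzyme of dopamine synthesis, differed by 0.59 (SE 0.23), or 0.29 with 3 array sets. Of 17 genes of transmitter synthesis and transport, 4 had the higher level at dawn without overlap in either set and 1, Gs2 (-0.13, SE 0.0775), the lower level. The median difference of the list was 0.18, and -0.08 with 3 array sets.

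Of 14 tested genes of clock neuropeptides and their receptors, 4 had the higher level at dawn without overlap in either set and 0 the lower level. The receptor gene NPFR differed by 0.57 (SE 0.194, adjusted p = 0.343), and 0.29 with 3 array sets as a block. Dh31 (0.32, SE 0.11, or 0.19 with 3 array sets) and Dh44 (0.22, SE 0.0765) are peptide genes of clock and output neurons. Pdf, which encodes the peptide of the ventral clock neurons, was at 9.95 to 10.84 at dawn and 9.67 to 10.64 at dusk and overlapped (0.27, SE 0.12, or 0.16 with 3 array sets). The median difference of the list was 0.24, and 0.10 with 3 array sets. Of 24 genes of neuronal channels and release machinery, 0 had the higher level at dawn without overlap and 4 the lower level, with a median difference of 0.06, and -0.07 with 3 array sets. Sh, a potassium channel gene, was at 11.06, 9.39, 10.76 and 10.75 on the dawn arrays, against 11.42, 11.25 and 9.77 on the dusk arrays (-0.45, SE 0.114, adjusted p = 0.304).

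Of 11 tested hemocyte genes, 5 had the higher level at dawn without overlap and 0 the lower level. The phagocytosis receptor gene eater differed by 0.37 (SE 0.123) and Hml by 0.34 (SE 0.133), or 0.22 with 3 array sets. The median difference was 0.20, and 0.12 with 3 array sets. The median level of the 12 measured genes per array was 8.67 to 9.68 at dawn and 8.58 to 9.61 at dusk. Of 27 testis and accessory gland genes, 15 had the lower level at dawn without overlap and 14 had an unadjusted p under 0.05. Their median difference was -1.02, and -0.36 with 3 array sets. Acp26Aa, a seminal fluid gene, was at 10.57, 2.68, 9.96 and 9.89 on the dawn arrays, against 11.79, 11.97 and 3.01 on the dusk arrays (-1.33, SE 0.32). Mst98Ca, a testis gene, differed by -1.70 (SE 0.377). Of 22 gut genes, 5 had the lower level at dawn without overlap. The median difference of the gut list was 0.70 inside the 2-array set and -2.575 in the other 5 arrays, so the sets ran in opposite directions. It was -1.50 with the 2 array sets as a block and 0.05 with 3. The added set was formed from the low level of this same list, so that change follows from the choice. Proteasome genes (38 tested) showed 4 without overlap, all lower at dawn (10.53%, against 9.14% of all probe sets). The named ones, Prosbeta2R2 (-0.92, SE 0.209) and Rpt4R (-0.70, SE 0.231), belong to the testis-expressed paralogs. The part of testis RNA in these differences was not tested.

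Without overlap in either set, glial genes had 0 higher and 1 lower at dawn of 9, insulin signalling genes 0 and 0 of 7, heat shock and chaperone genes 1 and 0 of 16, and antimicrobial and recognition genes 2 and 1 of 17. Fat body genes had 0 of 6 without overlap, with the yolk protein gene Yp1 at 15.74 to 15.91 at dawn and 15.71 to 15.83 at dusk, at a difference of 0.07 (0.04 with 3 array sets). fit, a gene of female fat body, was at 14.13 on ZT15 replicate 2 and 12.82 to 13.43 on the other 6 arrays. It differed by -0.52 (SE 0.183), and by -0.31 without ZT15 replicate 2 or ZT3 replicate 1. Muscle genes had 0 of 17, and the flight muscle actin gene Act88F was at 6.37 to 8.64 at dawn, against 12.82 at ZT11 and 6.36 and 9.36 in the ZT15 replicates, so its difference of -1.95 (SE 1.54) rested on ZT11 and was 0.17 without it, and -1.07 with 3 array sets. Cytosolic ribosomal protein genes had 10 of 41 with the higher level at dawn (24.39%, against 15.9% of all probe sets), with a median difference of 0.05, or 0.03 with 3 array sets. Mitochondrial ones had 5 of 69 (7.25%), with a median difference of 0.08. In fat metabolism, 3 of 16 genes had the higher level at dawn without overlap and 2 the lower level (18.75% and 12.5%). There mdy, which makes triglyceride, differed by 0.56 (SE 0.115), and FASN2 by -0.86 (SE 0.322), or -0.38 with 3 array sets. In carbohydrate metabolism Pepck1, of gluconeogenesis, was at 13.25 to 13.86 at dawn and 13.91 to 13.99 at dusk. Its lowest levels, 13.46 and 13.25, were on ZT3 replicates 2 and 3, and its difference was -0.34 (SE 0.159), or -0.12 (SE 0.102) with 3 array sets. Listericin, an antibacterial peptide gene, was at 12.77 to 13.11 at dawn and 12.47 to 12.62 at dusk (0.39, SE 0.0965), while Ilp2, the insulin-like peptide gene of the brain, overlapped (0.24, SE 0.148).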

How the data were processed

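Heads of 1 fly strain were measured on 9 Affymetrix arrays, of which 7 were compared. The authors deposited 1 intensity per probe set and array, made with GCRMA per the submitters' processing notes (version and settings: not given in the sources used here). Deposited intensities are antilogs of unstated base, which was settled from the numbers: the natural log ran from 1.67 to 15.91, log2 reached 22.95, and 18 hybridization control probe sets rose with concentration with a slope of 1.01 ± 0.0601 (SD, n = 9) on the natural log and 1.46 on log2. The natural log was therefore taken as log2 GCRMA. On the other base every difference would be multiplied by 1.44.

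Of 18952 probe sets, 183 controls were left out. Of the other 18769, 13647 named 1 gene, 402 several and 4720 none in the platform annotation, and 13544 matched a RefSeq gene by Entrez identifier. Those without 1 gene were tested but not named. Probe sets of at least 5 on at least 2 of the 7 arrays were tested (12040, for 9609 genes). No coordinates are given, because the annotation's build is not named, and no sequences were used here.

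Dawn and dusk were compared in R 4.3.3 with limma's lmFit and eBayes (version 3.58.1, two-sided, Benjamini-Hochberg over all 12040, threshold 0.05, residual df of 4), with the array set as a block. The code was tested on simulated data. Lists are described by counts, medians and no test, with 1 probe set a gene, that of the highest mean. All core clock genes, the 10 genes of smallest p in each direction (fewer than 6 passed), 2 of each list and 3 of the test between array sets were named by rule. The members and lists were chosen with earlier results of these data known. Replicate numbers are shared by ZT3 and ZT15 for 2 pairs. The deviations of same-numbered arrays correlated at -0.858. With 2 arrays a time the other pairing gives the same value with the opposite sign, and it puts together the arrays of the 2-array set. Whether the numbers mark shared collections therefore cannot be told from it. Alternatives covered the block, pooling of times, filter, normalization, log base, weights and each array left out.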

Additional observations from a re-analysis of the deposited data

Results flagged for a closer look

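The 4 dawn arrays were searched over the 83 named probe sets for an array far from the others, by the gap to its nearest neighbour as a share of the whole range, set against Dixon's critical value. Chance marks about 1 in 20 groups. Groups of 3 arrays were not searched. ZT3 replicate 1 was placed in the 2-array set because male reproductive transcripts were low on it, so its low values for msopa, Mst98Ca and Acp26Aa follow from that choice and are given as a description.

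ZT3 replicate 1 stood apart for 10 genes. It lay above the other dawn arrays for Ugt36F1 (8.58, the others 7.76 to 7.84, share 0.905), CG7724 (10.03, the others 9.34 to 9.44, share 0.857) and hh (6.38, the others 5.19 to 5.34, share 0.873). It lay below them for msopa (2.74, the others 8.19 to 8.54, share 0.94), CG5402 (2.52, the others 7.63 to 8.53, share 0.852), Mst98Ca (2.43, the others 9.97 to 11.15, share 0.864) and Acp26Aa (2.68, the others 9.89 to 10.57, share 0.914). It was also below for CG3987 (5.47, the others 8.72 to 8.80, share 0.975), CG10912 (6.13, the others 11.03 to 11.15, share 0.976) and CG2681 (8.09, the others 8.25 to 8.26, share 0.931).

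ZT23 lay below the 3 ZT3 arrays for Hdc (11.54, the others 11.73 to 11.74, share 0.933) and for sr (6.22, the others 8.02 to 8.37, share 0.834).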

How the results depend on the processing

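The count of called probe sets was 3. It was 3 or 4 with no block, with the level of the testis and accessory gland list as a covariate, with arrays centred on their medians, with quantile normalization, with log2 of the deposited values and with probe sets averaged per gene. It was 5 with the array set as a random block, 7 with the block and the gut list as a covariate, 6 with the stricter filter, 17 with trend and robust estimation, 2448 with array weights and 1, CG13305, without the 2-array set. It was 0 with no filter (smallest adjusted p 0.0592), with ZT3 against ZT15 only and with 6 times as levels. Leaving out single arrays gave 0 to 114 calls: 114 without ZT23, 1 without ZT3 replicate 1 or ZT15 replicate 2, and 0 without each of the other 4. Of the alternatives chosen after seeing the data, 3 array sets as a block (smallest adjusted p 0.0623) and leaving out ZT3 replicates 2 and 3 gave 0. The cause was not tested, save that leaving out arrays leaves fewer.

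With a replicate block over the 4 numbered arrays, 0 probe sets were called (smallest adjusted p 1.00, residual df of 1). A crossed replicate block, ZT3 replicate 1 with ZT15 replicate 2, called 0.

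Over 83 named probe sets and 26 settings, vri, Clk and per never turned direction and each passed in 12. The settings are not independent checks. Log2 of the deposited values only rescales the main fit, and leaving out the 2-array set or either of its arrays gives the same fit. The differences with 3 array sets equal those without ZT3 replicates 2 and 3. The reversed values were -0.0012 for CG3987, -0.25 for CG10912 and -1.27 for Jon65Aiv without the 2-array set or either of its arrays, and -0.757 for Jon65Aiv with array weights. loco (-0.0028) and chico (-0.016) reversed with 3 array sets or without ZT3 replicates 2 and 3, and Act88F (0.17) without ZT11. Over single omissions CG3987 ran from -0.0012 to 0.892, CG10912 from -0.25 to 0.812, Jon65Aiv from -1.27 to 1.56 and Act88F from -3.71 to 0.17. Levels near or under 5 are close to background.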
